A study of Mus musculus with 6 samples.

Results

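The genes described here are the matrix metalloproteinases (Mmp), the secreted proteases of the ADAMTS family, their ADAMTS-like relatives (Adamtsl) and the tissue inhibitors of metalloproteinases (Timp) in cultured nephrogenic stroma of the mouse. They were taken by symbol among protein-coding genes, which gave 52 of 21807: 24 Mmp, 19 Adamts, 5 Adamtsl and 4 Timp symbols. One of the 24, Mmp24os1, carries its name for lying opposite Mmp24 and is not a metalloproteinase, so it is kept apart. Nephrogenic stroma is the interstitial tissue that surrounds forming nephrons at the rim of the fetal kidney. It was obtained at embryonic day 18 by sorting PDGFRa-positive cells of wild-type CD1 mice, whose kidneys had been pooled. The cells were grown for 18 h in serum-containing medium on glass coverslips coated with the silicone PDMS. Before seeding, the PDMS had been incubated in bovine fibronectin at 500 ng/mL (low adhesion) or 50000 ng/mL (high adhesion). Each of 3 litters gave 1 library per condition, so there were 3 low and 3 high adhesion libraries, paired by litter.

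Matrix metalloproteinases are zinc-dependent enzymes made as inactive proenzymes, and together they cleave most components of the extracellular matrix. Soluble members act around the cell, while membrane-type members are held on its surface, where MMP14 also activates pro-MMP2. ADAMTS proteases cut proteoglycans such as aggrecan and versican, procollagens and other matrix proteins, whereas ADAMTS-like proteins lack the catalytic domain. TIMPs bind the active site of these enzymes, and TIMP3 is the one that is retained in the matrix and is the main inhibitor of several ADAMTS and ADAM proteases.

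Library totals ran from 12596249 to 13508257 deposited counts. A single count was worth 0.074 to 0.0794 CPM, the count rescaled so that all libraries have 1 total, and the detection floor of 3 counts was 0.222 to 0.238 CPM. Of all genes in the data, 14834 were tested and 1416 passed the adhesion test, with a median log2 fold change of all tested genes of 0.00. The stromal markers Pdgfra, Pdgfrb, Foxd1, Meis1, Col1a1 and Col3a1 were detected in every library. So were markers of other cells such as Krt18 and Emcn, so detection alone does not show how pure the stroma was. The summed level of the stromal markers, mostly Col1a1, was 2175 to 2439 CPM at low and 1864 to 1965 CPM at high adhesion. All 6 stromal markers fell. Summed epithelial markers (6 genes), mostly Krt18, were 288 to 585 CPM at low and 465 to 888 CPM at high adhesion. Of these 6 genes 4 rose, while Epcam and Cdh1 did not pass. Endothelial (5 genes), nephron progenitor (4), podocyte (4), macrophage (6) and neutrophil markers (5) overlapped in their sums between the conditions, and no marker of any list was at 0 in all libraries. Within each litter, though, the endothelial sum was lower and the nephron progenitor sum higher at high adhesion. Of the tested genes of these lists, Emcn fell, Cited1, Podxl and Lyz2 rose, and the others did not pass. In bulk RNA, fewer cells of a type and less RNA per cell cannot be told apart.

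The inhibitors held most of the family's reads. TIMP genes made up 74.2% to 81.3% of the CPM summed over the 52 genes, and the 7 genes above a mean of 20 CPM (Timp3, Timp2, Timp1, Mmp14, Adamts1, Adamts5 and Mmp2) made up 93.3% to 96.4%. Per kilobase of exon, Timp1 had the highest mean level, 127 ± 11.2 CPM per kb, then Timp3 with 113 ± 40.2 and Timp2 with 89.9 ± 12.1 (SD over 6 libraries). Their ranges overlapped, so the order among the 3 is not fixed by these libraries. Every library had Timp2 above Mmp14, which followed with 19.4 ± 1.18 CPM per kb. Then came Adamts1 with 15.4 ± 3.94, Mmp2 with 10.5 ± 1.09 and Adamts5 with 6.42 ± 1.71 CPM per kb (SD over 6 libraries). Over the pooled libraries each range overlapped the next. Within every library, though, Mmp14 was above Adamts1, Adamts1 above Mmp2 and Mmp2 above Adamts5. The remaining metalloproteinases were each below a mean of 2 CPM per kb. Whether reads covered transcripts evenly along their length is not given in the sources used here, and this bears on every per-length value.

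**Figure D1:**
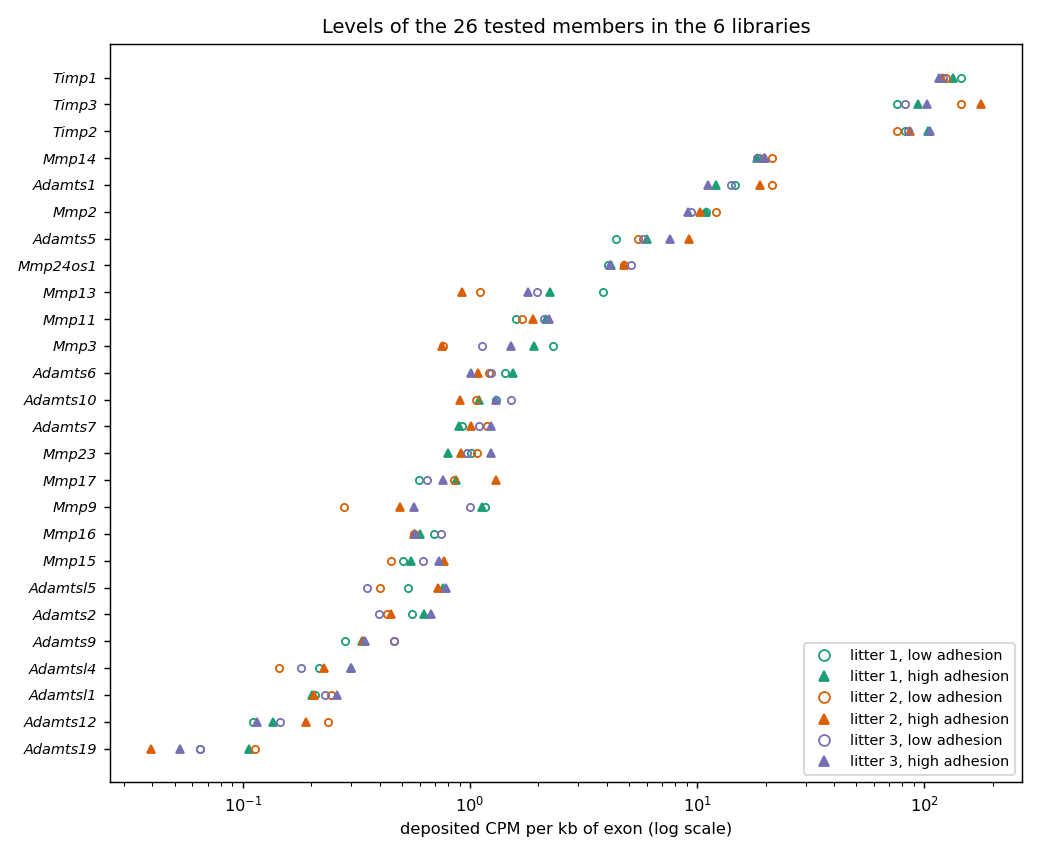
Level of each of the 26 tested genes (rows, ordered by mean) in the 6 libraries, as deposited CPM per kb of exon on a log axis; open circles are low and filled triangles high adhesion, colours are litters. The TIMP genes lie between 75.7 and 178 CPM per kb, above Mmp14 at 18.3 to 21.4.

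Many proteases were at or near the limit of detection. No count was found in any library for the collagenase genes Mmp1a and Mmp1b or for the epithelial matrilysin gene Mmp7, which allows up to 0.222 to 0.238 CPM per library. Of the 52 genes 26 were too low for the test, with means from 0 to 0.778 CPM and no more than 16 counts in any library. Among them were the macrophage elastase gene Mmp12 (means of 0.253 CPM on the low and 0.283 CPM on the high adhesion substrate), the neutrophil collagenase gene Mmp8 (0.278 and 0.179 CPM) and Adamts4 (0.757 and 0.639 CPM). The von Willebrand factor protease gene Adamts13 had 1 count in all.

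Of the 26 genes tested, 5 rose at high adhesion (Timp2, Timp3, Adamts5, Mmp17 and Adamtsl5), 2 fell (Adamts1 and Mmp13) and 19 did not pass. The threshold was an adjusted p of 0.05 in a quasi-likelihood fit (edgeR) that held litter as a block. Over all tested genes 9.55% passed, 4.71% upwards and 4.83% downwards. The median log2 fold change of the 26 was -0.04, with values from -0.47 to 0.82. In CPM the libraries of the conditions did not overlap for 4 of the 26 (Timp2, Adamts5, Adamtsl5 and Adamtsl4), against 15.4% of all tested genes. By CPM, 9 of the 26 were higher and 6 lower in 3 of 3 litters, against 41.3% of all tested genes with 1 direction in 3 litters. The test rests on changes within litters, and without the replicate block 0 of the 7 passed (edgeR adjusted p from 0.217 for Adamtsl5 to 0.883 for Timp3), with 3 of the 26 at an unadjusted p under 0.05. DESeq2 with litter in the model called Timp2, Timp3, Adamts5 and Adamts1 (adjusted p = 0.0481 for the last), but not the other 3.

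**Figure D2:**
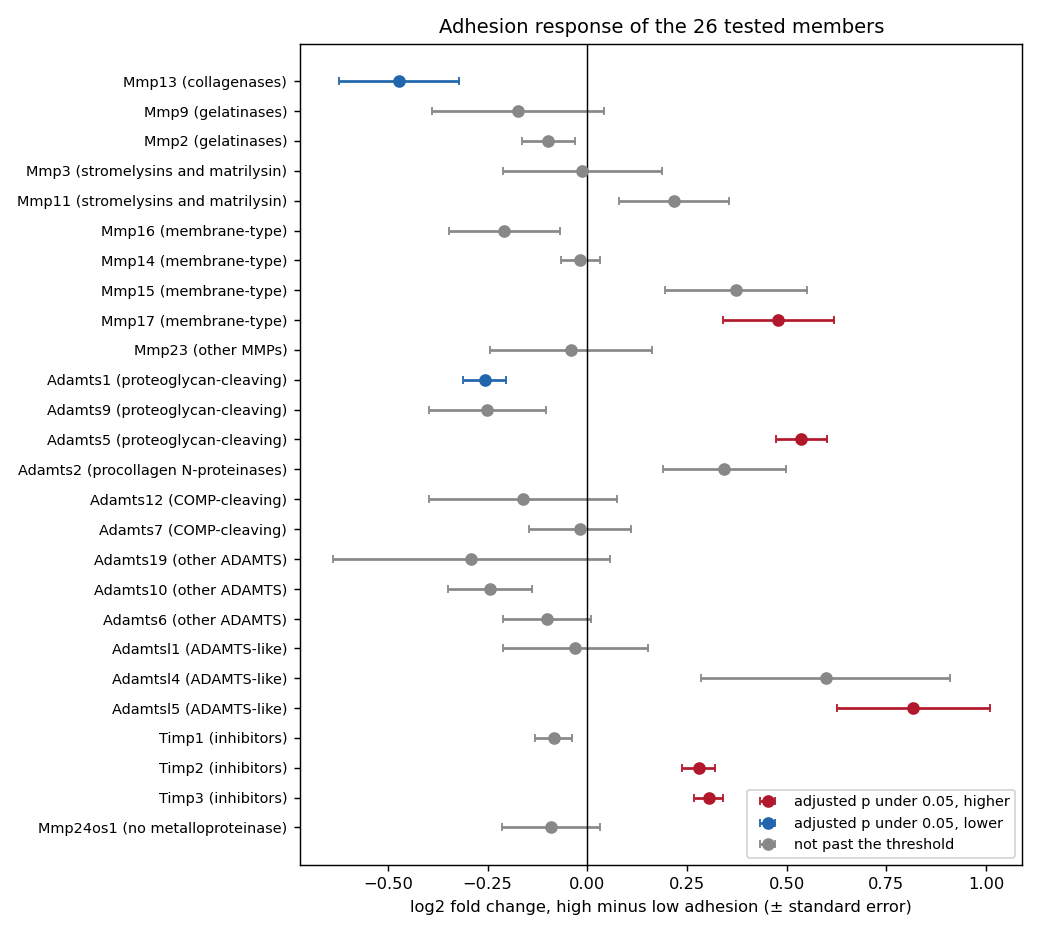
Log2 fold change (high minus low adhesion, with its standard error) of the 26 tested genes, ordered by role; red and blue mark genes past an adjusted p of 0.05. Adamtsl5 lies farthest to the right at 0.82 and Mmp13 farthest to the left at -0.47, and Mmp14 lies at -0.02.

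Among the inhibitors, Timp3 had 617, 1185 and 667 CPM in the low adhesion libraries of litters 1, 2 and 3 and 764, 1447 and 836 CPM in the high adhesion ones. Within each litter the high adhesion library was above its partner, although litter 2 stood far above the others on both substrates. The log2 fold change was 0.30 ± 0.04 (standard error from the fit to 3 litter pairs, edgeR adjusted p = 1.62e-06), a 1.24-fold rise. Standard errors given below over 3 pairs likewise come from the fit and are not the spread of the pairs. Timp2, whose product both inhibits MMPs and takes part in the activation of pro-MMP2 by MMP14, went from 320, 297 and 330 CPM to 403, 338 and 414 CPM in litters 1, 2 and 3. All 3 high adhesion libraries exceeded all 3 low ones, with a log2 fold change of 0.28 ± 0.04 (standard error over 3 pairs, edgeR adjusted p = 2.74e-05). Leaving out any 1 litter kept both calls, with log2 fold changes of 0.30 to 0.31 for Timp3 and 0.26 to 0.31 for Timp2.

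Timp1, the inducible soluble inhibitor, was lower at high adhesion in 3 of 3 litters but did not pass. It had 129, 111 and 107 CPM at low and 119, 106 and 103 CPM at high adhesion in litters 1, 2 and 3, a log2 fold change of -0.08 ± 0.05 (standard error over 3 pairs, edgeR adjusted p = 0.318). Its groups overlapped. Timp4 had between 1 and 7 counts per library and was not tested. As a share of the summed TIMP level per kb, Timp1 went from 48%, 36.1% and 42% to 40.5%, 31.1% and 35.7% in litters 1, 2 and 3, while the shares of Timp2 and Timp3 were higher at high adhesion in each litter.

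Of the 7 proteoglycan-cleaving ADAMTS genes 3 were tested, of which Adamts5 rose, Adamts1 fell and Adamts9 did not pass. Adamts5, which encodes a major aggrecan- and versican-cleaving enzyme, had 47.4, 59.1 and 62.3 CPM at low and 65.2, 99.0 and 82.3 CPM at high adhesion in litters 1, 2 and 3. The groups did not overlap, and the rise was 1.45-fold (log2 fold change 0.54 ± 0.06, standard error over 3 pairs, edgeR adjusted p = 2.545e-06). It was largest in litter 2, at 1.68 times, and without litter 2 the log2 fold change was 0.41. Adamts1, which encodes a versican-cleaving enzyme, had 77.8, 113 and 74.7 CPM at low and 64.1, 100.2 and 59.5 CPM at high adhesion. It was lower in 3 of 3 litters, by a log2 fold change of -0.26 ± 0.05 (standard error over 3 pairs, edgeR adjusted p = 0.00172), while litter 2 was above the other litters on both substrates, so the groups overlapped.

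Adamts1 and Adamts5 are next to each other on chromosome 16 in the order of protein-coding genes that RefSeq gives for GRCm38.p6. The ratio of Adamts5 to Adamts1 in CPM per kb was 0.299, 0.257 and 0.41 at low and 0.5, 0.485 and 0.68 at high adhesion in litters 1, 2 and 3. The lowest ratio at high adhesion was thus above the highest at low adhesion. Its rise in each litter follows from the rise of Adamts5 and the fall of Adamts1 given above and is not a separate result. Of the other members of this group, Adamts9 had 6.06 ± 1.56 CPM on the low and 5.09 ± 0.09 CPM on the high adhesion substrate (SD over 3 litters, edgeR adjusted p = 0.342). Adamts4, Adamts8, Adamts15 and Adamts20 were too low for the test, with 1 to 12 counts per library.

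**Figure D3:**
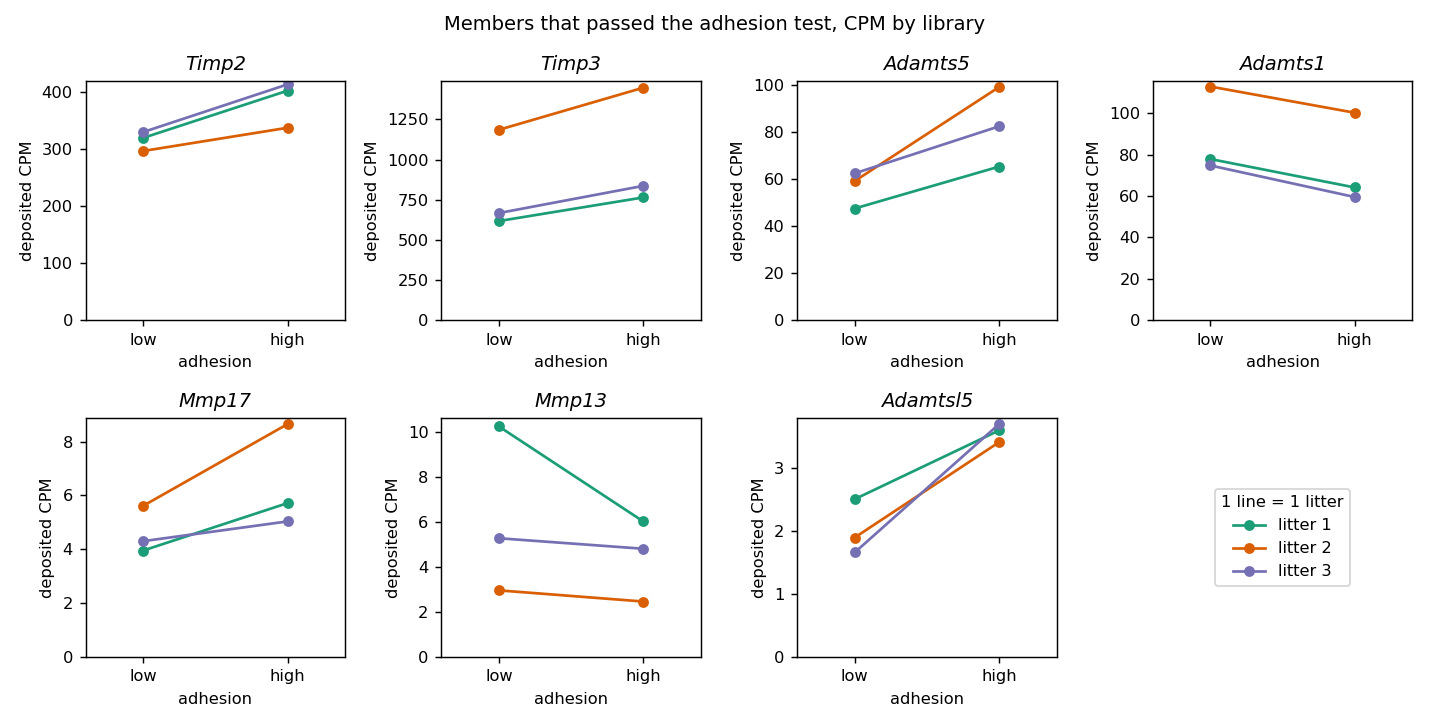
Deposited CPM of the 7 genes that passed the adhesion test, by substrate; each line joins the low and high adhesion library of 1 litter and the axes start at 0. Timp2, Adamts5 and Adamtsl5 separate the substrates without overlap, whereas for Timp3 and Adamts1 litter 2 lies above the other litters on both substrates.

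The procollagen N-proteinase gene Adamts2, whose product trims fibrillar procollagens, was above in 3 of 3 litters without passing, at 4.29 ± 0.77 CPM and 5.46 ± 1.10 CPM (SD over 3 litters, edgeR adjusted p = 0.18). Adamts3 and Adamts14, of the same activity, were not tested. The genes for the cartilage oligomeric matrix protein-cleaving enzymes had log2 fold changes of -0.02 ± 0.13 for Adamts7 and -0.16 ± 0.24 for Adamts12 (standard error), and neither passed. Adamts10, linked to fibrillin microfibrils, was lower in 3 of 3 litters (10.7 ± 1.84 and 9.05 ± 1.62 CPM, SD over 3 litters, edgeR adjusted p = 0.16). Adamts6 was at 10.1 and 9.44 CPM and did not pass (edgeR adjusted p = 0.678).

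Among the ADAMTS-like genes, Adamtsl5 had the largest log2 fold change of the tested members, 0.82 ± 0.19 (standard error over 3 pairs, edgeR adjusted p = 0.00534). It had 2.51, 1.90 and 1.66 CPM at low and 3.60, 3.41 and 3.70 CPM at high adhesion in litters 1, 2 and 3, from 22 to 50 counts per library, and the groups did not overlap. Without litter 3 it did not pass (log2 fold change 0.67, edgeR adjusted p = 0.0769), nor with DESeq2 (adjusted p = 0.336). Adamtsl4, at 0.758 and 1.15 CPM, was also above without overlap but did not pass (log2 fold change 0.60 ± 0.31, standard error over 3 pairs, edgeR adjusted p = 0.288). Adamtsl1 was at 2.90 and 2.84 CPM.

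The matrix metalloproteinase genes with the highest levels, Mmp14 and Mmp2, did not pass the test. Mmp14, the membrane-type enzyme that cleaves fibrillar collagen and activates pro-MMP2, had 112, 127 and 109 CPM at low and 109, 117 and 118 CPM at high adhesion in litters 1, 2 and 3. The groups overlapped, and its log2 fold change of -0.02 ± 0.05 did not pass (standard error over 3 pairs, edgeR adjusted p = 0.897). Mmp2, the gelatinase that MMP14 activates, had 36.9, 40.7 and 31.8 CPM at low and 36.8, 34.8 and 30.6 CPM at high adhesion. Its log2 fold change was -0.10 ± 0.07 (standard error over 3 pairs, edgeR adjusted p = 0.437).

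Of the other membrane-type genes, Mmp17, whose product is held on the surface by a lipid anchor, rose. It had 3.95, 5.61 and 4.30 CPM at low and 5.71, 8.65 and 5.03 CPM at high adhesion in litters 1, 2 and 3 (log2 fold change 0.48 ± 0.14, standard error over 3 pairs, edgeR adjusted p = 0.0271). The direction was the same in 3 of 3 litters, but the groups overlapped, and the gene did not pass without litter 1 (edgeR adjusted p = 0.0894), without litter 2 (0.237) or with DESeq2 (0.612). Mmp15 was above in 3 of 3 litters (2.84 and 3.68 CPM, edgeR adjusted p = 0.219) and Mmp16 below in 3 of 3 (5.81 and 5.04 CPM, edgeR adjusted p = 0.426). Mmp24 and Mmp25 had 0 to 3 counts per library. Mmp11, the stromelysin known from connective tissue, was above in 3 of 3 litters at 5.00 and 5.83 CPM without passing (edgeR adjusted p = 0.397), and Mmp23 was at 2.37 and 2.30 CPM.

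The collagenase gene Mmp13 and the stromelysin genes Mmp3 and Mmp10 belong to a run of 10 consecutive Mmp genes on chromosome 9 in RefSeq's order (Mmp13, Mmp12, Mmp1b, Mmp3, Mmp1a, Mmp10, Mmp8, Mmp27, Mmp20 and Mmp7). Transcription factors of the AP-1 family are known regulators of several of them. The 120 bases before the RefSeq start (GRCm38.p6) of these 3 genes and of Timp2 and Timp3, the inhibitors that rose, are shown for comparison. Capitals mark the AP-1 sequence TGANTCA, a palindrome apart from its middle base and so the same on both strands.
Mmp13 (chr9:7272394-7272513, + strand): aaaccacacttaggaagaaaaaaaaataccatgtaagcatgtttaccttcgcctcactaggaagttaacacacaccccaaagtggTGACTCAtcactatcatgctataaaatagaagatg
Mmp3 (chr9:7445702-7445821, + strand): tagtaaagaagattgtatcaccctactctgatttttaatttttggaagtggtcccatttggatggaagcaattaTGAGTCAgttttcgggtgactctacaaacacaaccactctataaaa
Mmp10 (chr9:7502222-7502341, + strand): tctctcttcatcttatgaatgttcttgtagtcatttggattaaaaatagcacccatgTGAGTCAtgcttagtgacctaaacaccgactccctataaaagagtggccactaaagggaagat
Timp2 (chr11:118355412-118355531, - strand): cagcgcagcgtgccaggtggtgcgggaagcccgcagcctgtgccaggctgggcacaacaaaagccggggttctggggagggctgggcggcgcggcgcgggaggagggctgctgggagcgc
Timp3 (chr10:86300292-86300411, + strand): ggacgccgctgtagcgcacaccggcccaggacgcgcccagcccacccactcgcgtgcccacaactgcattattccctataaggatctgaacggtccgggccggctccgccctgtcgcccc

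The AP-1 sequence begins 35 bases before the start in Mmp13, 46 in Mmp3 and 63 in Mmp10. In windows from 250 bases before to 50 after the start, it was present in 8 of the 10 genes of the chromosome 9 run and in 0 of the 26 other family members with an entry, against 7.81% of all 32851 windows. The TEAD sequence GGAATG, searched on both strands, was present in 2 of 36 members (Timp1 and Adamts13), against 14.7% of all windows. For both sequences members were counted by gene and the background by window, so the shares differ in unit. The stretches also differ in base composition, with 35.8% to 39.2% G and C in the 3 Mmp genes and 69.2% to 75% in Timp3 and Timp2. Whether composition goes with the direction of change was not tested, and only 5 genes that passed had an entry. Mmp13, which fell, had 37.5%. Among the other genes that passed and had an entry, Adamts1, which fell, had 67.5% over the same 120 bases. Adamtsl5, which rose, had 75.8%, and neither gene held the AP-1 sequence in its window. A match describes letters only and is no evidence of binding in these cells.

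Mmp13 fell by 0.47 on the log2 scale (standard error 0.15 over 3 pairs, edgeR adjusted p = 0.0472), just inside the threshold. It had 10.3, 2.96 and 5.28 CPM at low and 6.03, 2.46 and 4.81 CPM at high adhesion in litters 1, 2 and 3. Most of the change came from litter 1, with a ratio of 0.588 against 0.832 and 0.911 in the others. Without litter 1 the log2 fold change was -0.18 (edgeR adjusted p = 0.752), and the gene did not pass with DESeq2, with limma-voom or without scaling beyond library totals (adjusted p = 0.778, 0.0667 and 0.0573). Mmp3 and the gelatinase gene Mmp9 did not pass, with log2 fold changes of -0.01 ± 0.20 and -0.17 ± 0.22 (standard error over 3 pairs, edgeR adjusted p = 0.98 and 0.722). Mmp10 had 2 to 15 counts per library and was not tested.

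Several members differed between litters. In the same model 11 of the 26 tested genes differed between litters at an adjusted p of 0.05, against 17.9% of all tested genes. Mmp13, Mmp3 and Mmp9 were lowest in litter 2: the mean of its 2 libraries was 2.71 CPM for Mmp13, 1.36 for Mmp3 and 1.37 for Mmp9, against 8.14, 3.81 and 4.05 CPM in litter 1 and 5.05, 2.39 and 2.77 CPM in litter 3. Both libraries of litter 2 lay below the other 4 for each of these genes (edgeR litter adjusted p = 3.88e-06, 0.000444 and 0.00107). For Mmp10, which was not tested, litter 3 was lowest instead: the deposited counts were 15 and 14 in litter 1, 6 and 5.5 in litter 2 and 4 and 2 in litter 3.

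Timp3 and Adamts1 showed the reverse, with both litter 2 libraries above the other 4. Litter means were 690, 1316 and 751 CPM for Timp3 (edgeR litter adjusted p = 5.017e-15) and 71.0, 106.6 and 67.1 CPM for Adamts1 (edgeR litter adjusted p = 5.75e-09). Adamts5 (56.3, 79.0 and 72.3 CPM) and Mmp17 (4.83, 7.13 and 4.67 CPM) were also highest on average in litter 2. Timp1, Timp2 and Mmp2 differed less, with ratios of the highest to the lowest litter of 1.17 to 1.21. For Adamts10 this ratio was 1.43, with both litter 2 libraries below the other 4.

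Markers of other cells varied with litter as well. The summed macrophage markers were 47.3 and 54.7 CPM in the litter 1 libraries and 23.1 to 26.5 CPM in the other 4. The summed epithelial markers, mostly Krt18, were lowest in litter 2 within each substrate. Krt18 alone of that list was lowest in litter 2 on both substrates, and Cldn6 was highest there. Litter 3 had macrophage sums close to those of litter 2 (23.7 and 26.5 against 24.3 and 23.1 CPM). Its Mmp13 and Mmp3 were above those of litter 2. Lyz2, the highest macrophage marker, had litter means of 13.04 CPM in litter 2 and 11.9 CPM in litter 3. The other macrophage markers had their lowest mean in litter 2, as Mmp13, Mmp3 and Mmp9 did. Adgre1 had 6.56, 2.43 and 3.47 CPM and Aif1 5.32, 1.67 and 2.28 CPM in litters 1, 2 and 3. Cd68 had the same order on both substrates, but Csf1r and Ptprc did not. The part of cells other than stroma in the litter differences was not tested.

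**Figure D4:**
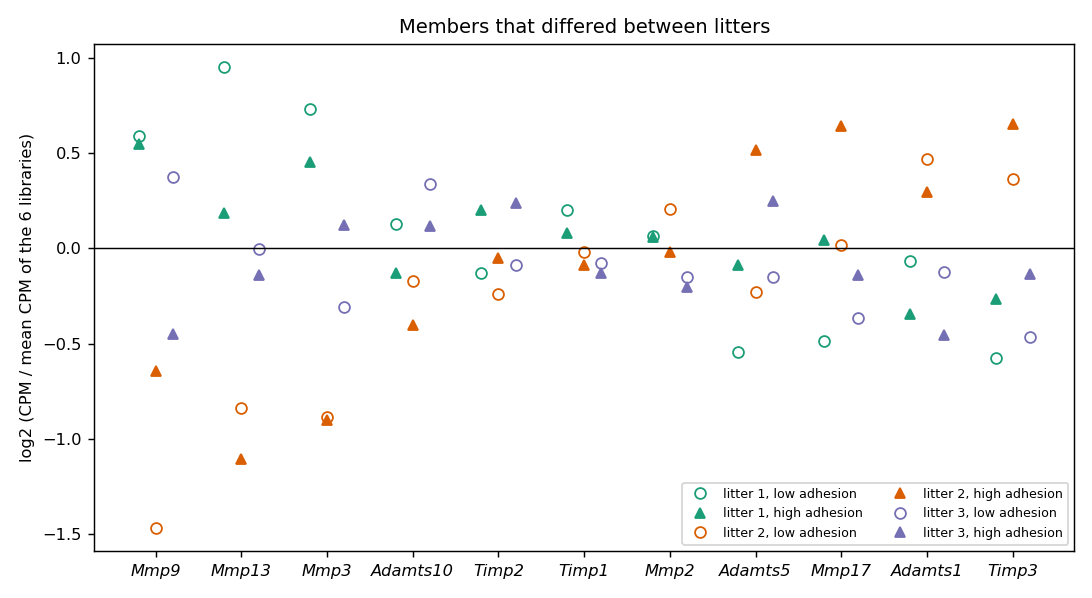
Level of the 11 genes that differed between litters, as log2 of CPM over the mean of the 6 libraries; open circles are low and filled triangles high adhesion, colours are litters. Both litter 2 libraries lie lowest for Mmp9, Mmp13, Mmp3 and Adamts10 and highest for Adamts1 and Timp3.

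Summed over each family and set per kb of exon, TIMP over MMP levels stood at 7.13, 8.49 and 7.64 in the low and 8.19, 10.1 and 8.39 in the high adhesion libraries of litters 1, 2 and 3. The ratio was higher at high adhesion in 3 of 3 litters, with overlap between the groups because of litter 2. The MMP sum was 37.6 to 42.6 CPM per kb at low and 38.0 to 40.5 at high adhesion, while the TIMP sum was 287 to 347 and 325 to 384 CPM per kb. These are RNA levels, and neither secreted protein nor activity was measured.

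The genes for substrates of these enzymes were mostly lower at high adhesion. Of 18 tested substrate genes 13 fell, 0 rose and 5 did not pass, with a median log2 fold change of -0.26. Over all tested genes 4.83% fell and 4.71% rose. The proteoglycan gene Bgn fell by 0.84, the fibrillar collagen gene Col3a1 by 0.34, the phosphoprotein gene Spp1 by 0.54 and the latent TGF-beta binding protein gene Ltbp1 by 0.38 on the log2 scale. Versican (Vcan), a substrate of both ADAMTS1 and ADAMTS5, went from 31.6 to 21.2 CPM (edgeR adjusted p = 0.000431) and aggrecan (Acan) from 63.6 to 55.6 CPM (edgeR adjusted p = 0.0311), in both cases without overlap. Col1a1 and Col3a1 of this list are also stromal markers and hold most of the stromal sum given above (1604 and 261 of 2175 CPM in the low adhesion library of litter 1). The lower sum is therefore largely their own fall. The other stromal markers Pdgfra, Pdgfrb, Foxd1 and Meis1 were also lower, and the part of cell composition was not tested. Without the replicate block 0 of the 18 passed, DESeq2 called 6, and without litter 3 edgeR called 8.

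Genes that act on the proteases went both ways, as did all tested genes, of which 4.71% rose and 4.83% fell. Among zymogen activators 2 of 7 rose: the urokinase receptor gene Plaur, from 232 to 292 CPM (edgeR adjusted p = 6.38e-06), and the urokinase gene Plau, from 42.2 to 54.0 CPM (edgeR adjusted p = 0.000347). Furin, which cleaves the propeptide of membrane-type MMPs and ADAMTS proteases, did not pass (119 and 113 CPM, edgeR adjusted p = 0.398). Of 7 further regulators 2 fell. Lrp1, the endocytic receptor that clears several MMPs, ADAMTS proteases and TIMPs from the cell surroundings, went from 89.9 to 58.9 CPM (edgeR adjusted p = 4.63e-08) without overlap. The Kunitz-type inhibitor gene Tfpi2 went from 5.16 to 3.53 CPM (edgeR adjusted p = 0.0206). Reck, a membrane-anchored MMP inhibitor, was at 6.27 and 5.33 CPM and did not pass (edgeR adjusted p = 0.373).

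In the related ADAM family, 3 of 9 tested genes rose and 0 fell, against 4.71% and 4.83% of all tested genes. Adam9, Adam15 and Adam19 had log2 fold changes of 0.33, 0.45 and 0.19 (edgeR adjusted p = 0.000264, 0.042 and 0.0019), whereas the sheddase genes Adam10 and Adam17 did not pass (-0.12 and -0.22). Among procollagen C-proteinases and their enhancers 1 of 4 tested genes fell, Pcolce2, from 19.0 to 14.4 CPM (edgeR adjusted p = 0.00356), and the protease gene Bmp1 was at 31.2 and 29.8 CPM. Read counts of Adamts1 and Mmp14 held fractions in 3 of 6 libraries, of Adamts5 in 2, and of Timp2 and Timp3 in 1, which leaves these values uncertain.

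**Figure D5:**
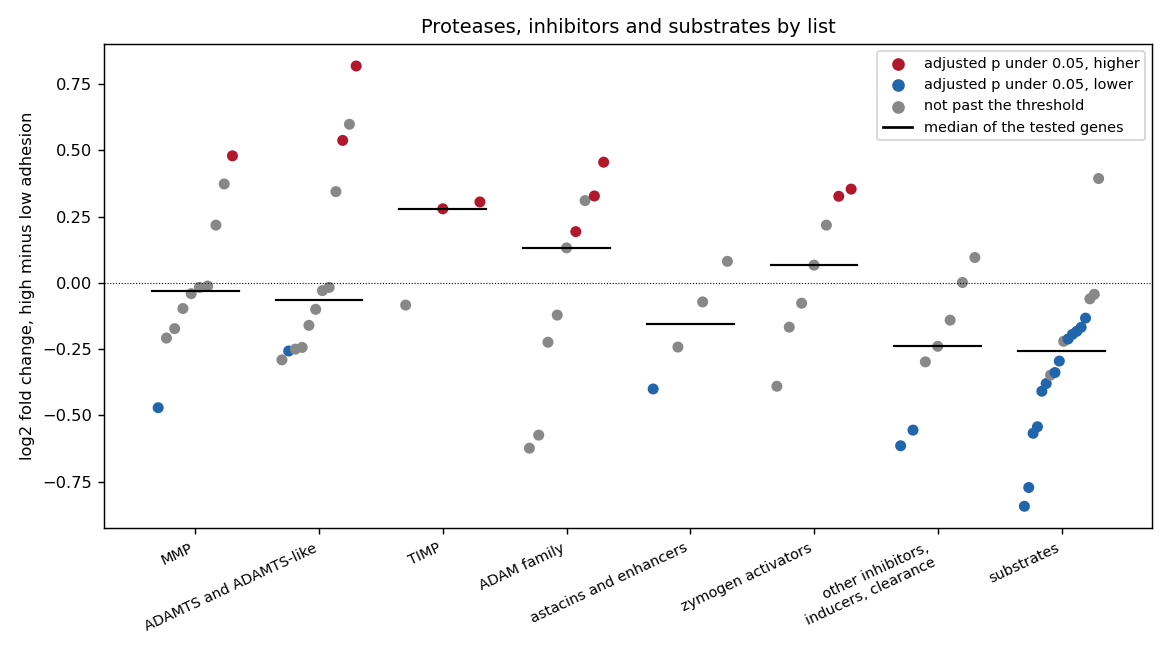
Log2 fold change (high minus low adhesion) of each tested gene of the MMP, ADAMTS with ADAMTS-like and TIMP families and of 5 related lists; red and blue mark genes past an adjusted p of 0.05, lines are medians of the tested genes. The substrate list has 13 blue points and a median of -0.26, and the 3 TIMP genes have 2 red points and 1 just below 0.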

How the data were processed

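Messenger RNA was measured in 6 libraries, 3 per substrate, each from 1 litter's pooled kidneys. The submitters' processing notes list, for GRCm39, the aligner STAR 2.7.11 and the counter featureCounts (Subread 2.1.1), with fastp 0.24.0, FastQC 0.12.1, MultiQC 1.32 and SAMtools 1.22.1. No strand setting or rule for shared reads is stated in these sources. The authors deposited estimated counts per gene, some fractional, and CPM. CPM printed here are the deposited CPM, with mean ± SD over libraries.

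Counts were rounded and analysed in R 4.3.3 with edgeR 4.0.16 (filterByExpr, TMM, robust quasi-likelihood, litter as a block as the series' design text states), with Benjamini-Hochberg adjustment over 14834 genes, two-sided, threshold 0.05. Same-litter libraries deviated together from their group means (correlations 0.58, 0.58 and 0.36 across genes, and -0.49 to -0.08 between litters). Since each group was centred on its own mean, positive same-litter values make the others negative, and those add no support for the pairing. The standard error is the log2 fold change over the root of F. The fit was also run on data simulated from its own estimates, with 200 changed genes. That run does not test the calls given here. Alternatives used DESeq2 1.42.0, limma 3.58.1, other scalings and filters, and left out each litter. Exon lengths came from GENCODE M21 and promoters from RefSeq, both of GRCm38, matched by identifier and symbol (36 of 52 members had a promoter entry). Members and lists were chosen with earlier results of these data known. Every member past the threshold is named with all 6 values, other members of at least 5 CPM with means, and up to 4 called genes of each related list. Vcan, Acan, Col1a1, Furin, Reck, Adam10, Adam17, Bmp1 and members under 5 CPM were named after their values were seen.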

Additional observations from a re-analysis of the deposited data

How the results depend on the processing

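Timp2, Timp3, Adamts5 and Adamts1 passed in 11 of 12 alternatives, the exception being the fit with no replicate block; Adamtsl5 passed in 8 of 11, Mmp17 in 8 of 12 and Mmp13 in 6 of 12. None of these 7 genes changed direction in any alternative run. Over all genes the calls went from 1416 (699 higher, 717 lower) to 36 (20 and 16) without the replicate block and to 406 (207 and 199) with DESeq2. Leaving out 1 litter gave 908 to 1553 calls (426 to 734 higher), the fewest without litter 3. Among the members they went from 7 (5 and 2) to 0 (0 and 0) without the replicate block and to 4 (3 and 1) with DESeq2. A single member, Adamts1, was called lower with limma-voom (1), with library totals only (1) and without robust estimation (1). Calls in the related lists went from 21 to 1 without the replicate block and to 11 with DESeq2; these alternatives were chosen after seeing the data. The cause was not tested. The filter on low counts left 26 members untested, all with a mean of 0.778 CPM or less.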

Other observations

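Mmp24os1, which the symbol rule takes in, had 6.53, 7.66 and 8.22 CPM at low and 6.73, 7.70 and 6.66 CPM at high adhesion in litters 1, 2 and 3, while Mmp24 had 1 to 3 counts per library. Without the strand setting, reads of such a pair cannot be told apart where they overlap. Timp1, Timp3 and Timp4 each lie inside a synapsin gene (Syn1, Syn3 and Syn2) in RefSeq's annotation of GRCm38.p6, and Timp2 does not lie inside another protein-coding gene.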
